A study of Mus musculus with 13 samples.

Results

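The cytoplasmic ribosomal protein genes code for the proteins of the large and the small ribosomal subunit. They were taken by symbol, as protein-coding rows named Rpl, Rplp or Rps with a number, plus Rpsa. Of the 28183 genes listed for the kidneys, 81 met this rule, 49 of the large and 32 of the small subunit, and 79 of them had values high enough to be tested. In the table of the cell line, which lists 2016 genes, 41 of the 81 were present. The ribosome reads messenger RNA and joins amino acids, and its proteins are needed in nearly equal amounts. Many of their messenger RNAs begin with a run of pyrimidines, the terminal oligopyrimidine tract, through which the mTORC1 kinase pathway controls how fast they are translated. mTORC1 activity has been described in the cyst epithelium of polycystic kidneys, and its S6 kinases phosphorylate the ribosomal protein Rps6.

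RNA-seq was done on whole kidneys of C57BL/6 mice from a pair of polycystic kidney models and on mIMCD-3 cells, a mouse line from the inner medullary collecting duct. Pkd1 knockouts (KSP/Cre+;Pkd1f/f) and their controls (KSP/Cre-;Pkd1f/f) were taken at postnatal day 10, with 2 libraries each. Pkd2 knockouts (Pkhd1/Cre+;Pkd2f/f) and controls (Pkhd1/Cre-;Pkd2f/f) were taken at postnatal day 20, again with 2 libraries each. All kidney groups carried the floxed alleles, and both Cre transgenes act in tubule epithelium, so the other cells of the kidney keep the gene. The cells were transfected with 10 nM of a gapmer, an antisense oligonucleotide that leads to cleavage of the bound RNA, and were harvested after 48 h. The gapmer targeted Hoxb3os, a long noncoding RNA, in 3 libraries and was a control in 2. The labels give this dose for the Hoxb3os gapmer and do not name one for the control. The Pkd2 knockout libraries have WT in their titles but Cre in their genotype, which was followed. Nothing in the labels says that the libraries of a group came from separate animals or cultures, so the p-values measure the spread between these libraries.

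The kidney libraries held 30.7 to 57.6 M reads, as recovered from the steps of the deposited values, except Pkd1 control replicate 1, whose step is less certain and gave 94.4 M. Pkd1 transcript values overlapped between Pkd1 controls (31.1 and 22.7) and Pkd1 knockouts (24.1 and 26.0), so they do not check that label. Pkd2 transcript values were lower in both Pkd2 knockouts (50.7 and 53.3) than in both Pkd2 controls (69.0 and 61.2). Hoxb3os was not among the genes of the cell table. Marker genes of the proximal tubule summed to 1684 and 1945 in Pkd1 controls against 556 and 684 in Pkd1 knockouts, and to 2571 and 3201 in Pkd2 controls against 1400 and 958 in Pkd2 knockouts. Markers of macrophages, fibroblasts and proliferating cells had higher sums in both knockouts than in both controls of each model, and the part of this shift in cell makeup in the results below was not tested. In whole kidneys a change in the number of cells of a type and a change in RNA per cell cannot be told apart.

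The ribosomal protein genes took 2.05 and 1.92% of all deposited values in Pkd1 controls and 3.08 and 2.98% in Pkd1 knockouts. They took 1.32 and 1.25% in Pkd2 controls and 2.01 and 1.75% in Pkd2 knockouts, so on this scale the knockouts lay above the controls in both models without overlap. Mitochondrially encoded genes (22.05 to 41.4%) and small structural RNAs such as 7SL and 7SK (6.42 to 29.2%) took far larger and more variable shares. Of the values left after removing both, the ribosomal protein genes took 3.61 and 5.12% in Pkd1 controls and 6.32 and 4.64% in Pkd1 knockouts. In the Pkd2 model they took 3.47 and 3.22% in controls and 4.83 and 2.76% in knockouts. On this second scale the groups overlapped in both models. Within 3 of the 4 groups, the library with more small structural RNA clearly had the larger ribosomal protein share on this second scale. The Pkd2 controls, which were close in one share, were close in the other. On the scale of all values the Pkd1 controls went the other way, at 2.05% in replicate 1 and 1.92% in replicate 2.

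**Figure D1:**
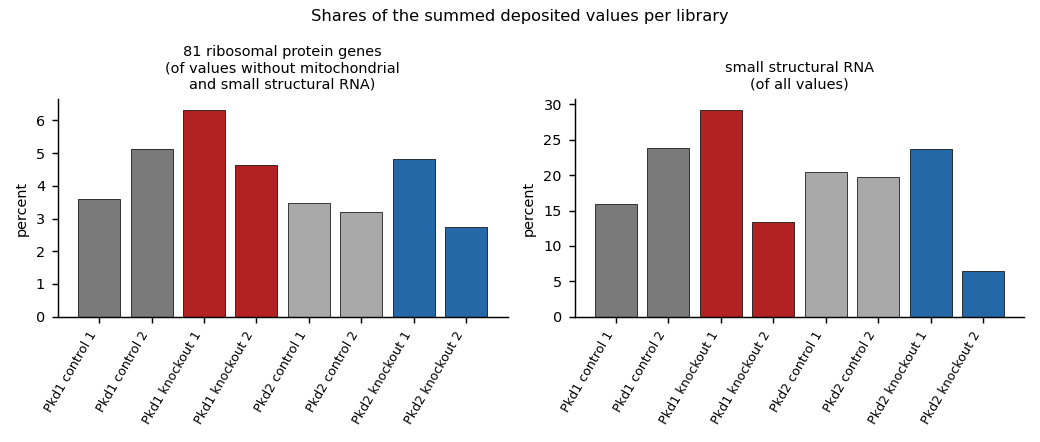
Bars give, for each of the 8 kidney libraries, the percent of deposited values in the 81 ribosomal protein genes after mitochondrial genes and small structural RNAs were left out (left) and the percent of all values in small structural RNAs (right). The lowest library is Pkd2 knockout replicate 2 in both panels, at 2.76 and 6.42%, and the highest is Pkd1 knockout replicate 1, at 6.32 and 29.2%.

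The sequence around the annotated start was available from RefSeq (GRCm38.p6, the assembly of the deposited tables) for 60 of the 81 genes. A run of at least 8 pyrimidines (C or T on the coding strand) within 25 bases of the start was present in 29 of the 60, or 48.3%, against 18.7% of the other tested genes and 19.4% of all genes with an entry. The letters CCGGAAG, the core bound by ETS factors, occurred on either strand between 250 bases before and 50 bases after the start in 40% of the 60 promoters, in 17.3% of the other tested genes and in 9.12% of all. TATAAA on either strand occurred in 8.33% of the 60, in 7.07% of the other tested genes and in 14.2% of all. These are matches of letters and not mapped sites, and the minimum run was chosen with the sequences in view. Rpl29 and Rps4l, which are called in comparisons below, have no window here. The windows of 9 other members named below are shown from 10 bases before the annotated start, with the longest pyrimidine run in capitals.
Rps6, chr4:86857348-86857377, minus strand: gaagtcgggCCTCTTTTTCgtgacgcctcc
Rpsa, chr9:120127756-120127785, plus strand: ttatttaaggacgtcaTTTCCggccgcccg
Rpl14, chr9:120571507-120571536, plus strand: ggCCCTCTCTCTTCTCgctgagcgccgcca
Rpl15, chr14:18270967-18270996, minus strand: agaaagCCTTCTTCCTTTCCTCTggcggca
Rpl12, chr2:32961702-32961731, plus strand: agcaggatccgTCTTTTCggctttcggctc
Rpl28, chr7:4792955-4792984, plus strand: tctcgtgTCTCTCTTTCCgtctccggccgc
Rplp0, chr5:115559457-115559486, plus strand: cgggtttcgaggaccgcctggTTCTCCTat
Rplp2, chr7:141447641-141447670, plus strand: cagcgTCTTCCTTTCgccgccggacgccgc
Rps27, chr3:90213629-90213658, minus strand: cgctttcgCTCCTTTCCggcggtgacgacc
The run was 17 bases in Rpl15, 14 in Rpl14, 11 in Rpl28, 10 in Rps6 and in Rplp2, 9 in Rps27, 7 in Rpl12 and in Rplp0, and 5 in Rpsa.

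In Pkd1 knockout kidneys Rps6 rose, and it was the only 1 of 79 tested ribosomal protein genes that passed the test. None fell. Over all 14637 tested genes, 5.11% were called higher and 5.48% lower by limma on log2(value + 1) at a Benjamini-Hochberg adjusted p below 0.05, so the share of ribosomal protein genes called was below that of the table. The family nevertheless stood mostly to one side, since 72 of the 79 log2 fold changes were above 0, with a median of 0.36 beside -0.0021 over all tested genes. At an unadjusted limma p below 0.05 there were 9 of the 79 members, a smaller share than the 3995 of all 14637 tested genes.

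Rps6 (chr4:86854660-86857412, minus strand) measured 221 and 252 in Pkd1 controls and 372 and 429 in Pkd1 knockouts, in the deposited unit, a scaled CPM. It measured 183 and 157 in Pkd2 controls and 252 and 238 in Pkd2 knockouts. In each model both knockout libraries lay above both controls. The log2 fold change was 0.76 ± 0.20 (SE, n = 2 against 2, limma adjusted p = 0.0447) in the Pkd1 model and 0.53 ± 0.20 (limma adjusted p = 0.101) in the Pkd2 model. The Pkd1 call held in 7 of 18 alternatives, with adjusted p between 0.00461 and 0.221 and log2 fold changes between 0.65 and 0.86, and it was lost when any library of the Pkd1 model or either Pkd2 control was left out. The table also lists 4 pseudogene copies of Rps6, whose values sum to 41.7 to 129 per library, so some reads may be shared between the gene and its copies.

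Rpsa, the small subunit protein also known as the laminin receptor, measured 147 and 174 in Pkd1 controls and 231 and 253 in Pkd1 knockouts. Its values were 106 and 110.4 in Pkd2 controls and 158 and 167 in Pkd2 knockouts. The knockout libraries lay above the controls in both models without overlap, by 0.59 ± 0.18 (limma adjusted p = 0.0705) and 0.58 ± 0.18 (limma adjusted p = 0.0561) on the log2 scale. Rpl14, a large subunit protein, measured 96.9 and 115 in Pkd1 controls and 150.4 and 169.7 in Pkd1 knockouts, then 77.9 and 71.3 in Pkd2 controls and 100.2 and 101 in Pkd2 knockouts. Its differences were 0.59 ± 0.17 (limma adjusted p = 0.0651) and 0.43 ± 0.17 (limma adjusted p = 0.126). By DESeq2 on the recovered reads 4 members passed the test in the Pkd1 model, Rps6, Rpsa, Rpl14 and Rpl7, while edgeR called none. Over all genes DESeq2 called 2203 and edgeR 1534.

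**Figure D2:**
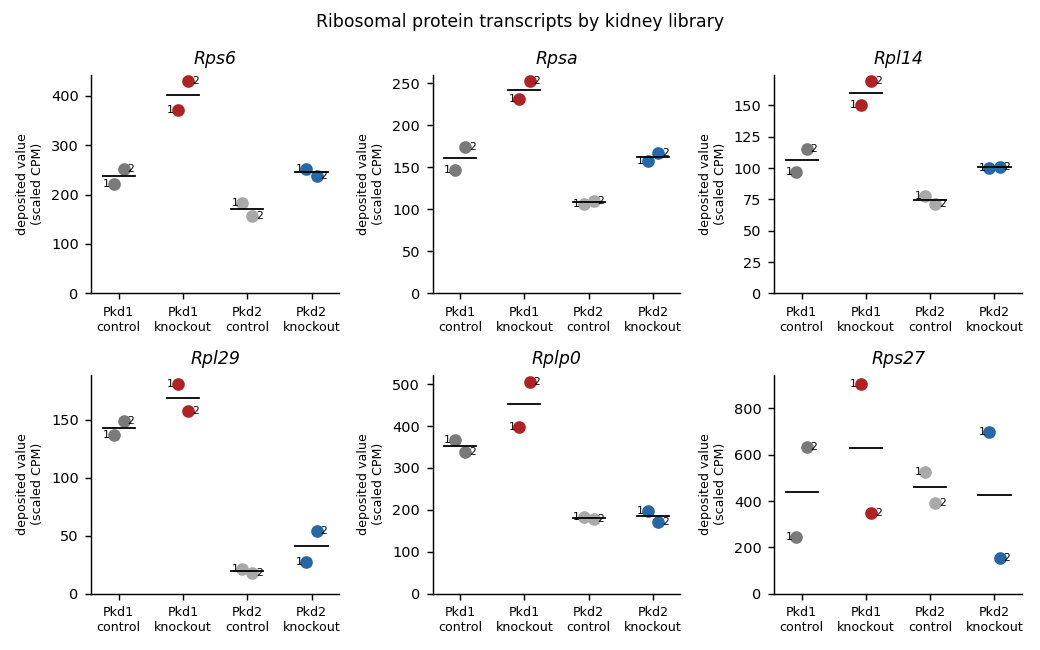
Deposited values (scaled CPM, linear axes from 0) of 6 ribosomal protein genes in the 8 kidney libraries, with replicate numbers beside the points and a line at each group's mean. Rps6, Rpsa and Rpl14 lie above the controls in both knockouts of both models, Rpl29 and Rplp0 are lower in all 4 day 20 libraries than in all 4 day 10 libraries, and the Rps27 replicates of a group lie up to 154 against 696 apart.

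At the upper end of the Pkd1 comparison stood Rpl17 with 0.78 ± 0.28, Rps6, and Rps19 with 0.75 ± 0.48. Rps19, the gene mutated most often in Diamond-Blackfan anaemia, measured 183 and 422 in Pkd1 controls and 663 and 332 in Pkd1 knockouts. Its groups overlapped, and the gap between the 2 libraries of each group was larger than the difference of the groups. At the lower end stood Rpl13 with -0.58 ± 0.38, Rpl28 with -0.28 ± 0.31 and Rplp2 with -0.27 ± 0.54, none of which passed the test. Rpl28 measured 198 and 193 in Pkd1 controls and 163 and 159 in Pkd1 knockouts. It was the only tested member with both Pkd1 knockout libraries below both controls.

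Both knockout libraries lay above both controls for 27 of the 79 tested members in the Pkd1 model, where 29.1% of all tested genes did so. Of the 40 members with a coding sequence of at least 453 nt, the median length, 21 were among them, and of the 38 shorter ones 6. The medians of the log2 fold changes were close, 0.39 for the long and 0.35 for the short members, but the median SE was 0.27 for the long and 0.44 for the short. The median log2 fold change was 0.34 over the 47 tested large subunit members and 0.42 over the 32 small subunit members.

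The gap between replicate libraries varied with coding length. In Pkd2 knockouts Rps29, one of the shortest members with 168 coding nt, measured 265 in replicate 1 and 55.5 in replicate 2, a gap of 2.24 on the log2 scale. Rps27, with 252 coding nt, measured 696 and 154. Rpl4, with 1257 coding nt, measured 198 and 188 in the same libraries. Over the 78 tested members with a coding length, Spearman's rho between length and the log2 gap of replicate 1 over replicate 2 was -0.80 in Pkd2 knockouts, -0.59 in Pkd1 knockouts, 0.65 in Pkd1 controls and 0.31 in Pkd2 controls. These describe genes within the same library pairs, and the genes are not independent replicates. In Pkd1 knockouts and Pkd2 knockouts replicate 1 had more small structural RNA (29.2 against 13.4% and 23.7 against 6.42%), in Pkd1 controls replicate 2 had more (23.9 against 15.9%), and the Pkd2 controls were close (20.4 and 19.8%). In each of the 3 groups where these shares differed, the median gap of the 38 short members and that of the 40 long members both went toward the library with more small structural RNA, and the short members' median was further from 0. The medians of replicate 1 minus replicate 2 were -0.83 for short and -0.43 for long members in Pkd1 controls, 0.63 and 0.25 in Pkd1 knockouts, and 1.301 and 0.55 in Pkd2 knockouts. Single short members went the other way, such as Rps24 at -0.24 in Pkd1 knockouts and Rpl28 at 0.036 in Pkd1 controls. In Pkd2 controls, where the shares were close, the medians were 0.049 for short and 0.17 for long members. There the long members' median was further from 0. How much of the gap comes from the share of small structural RNA was not tested.

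**Figure D3:**
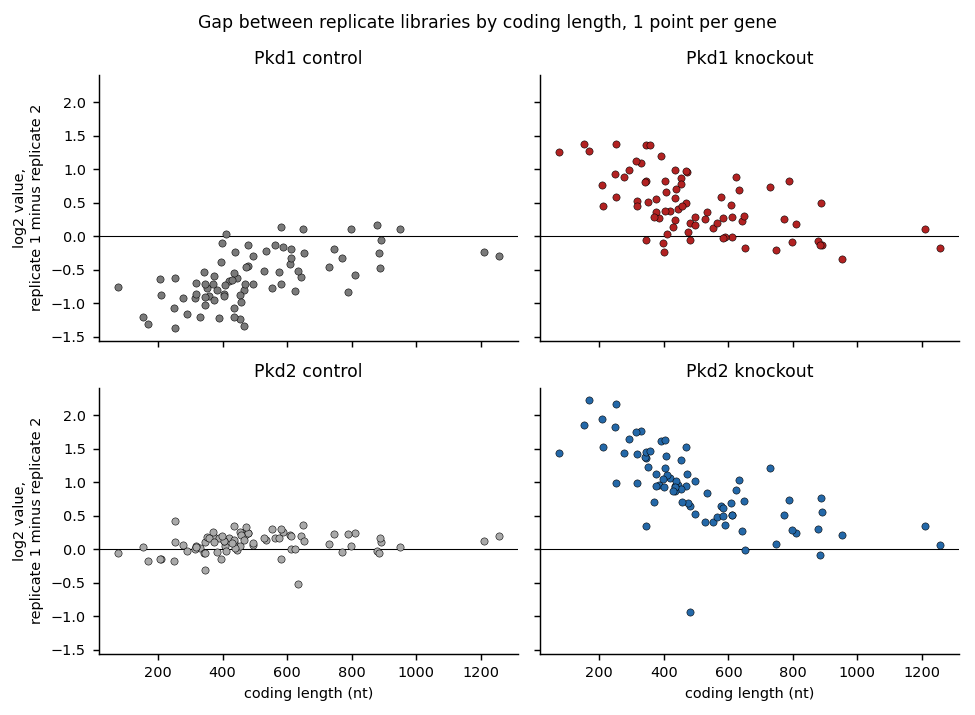
Each point is a tested ribosomal protein gene, with its coding length in nt on the x axis and the log2 value of replicate 1 minus that of replicate 2 on the y axis, for the 4 kidney groups. Gaps tend to be wider among short genes, upward in both knockout groups (up to 2.24) and downward in Pkd1 controls (to -1.38). The order is not strict, since in Pkd1 controls Rpl41 (75 nt) is at -0.76 and Rps27a (468 nt) at -1.33. The Pkd2 controls stay between -0.51 and 0.43.

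Leaving out single libraries moved the family's median with these gaps. In the Pkd1 model the median log2 fold change was 0.043 without Pkd1 control replicate 1 and 0.14 without Pkd1 knockout replicate 1, against 0.71 without Pkd1 control replicate 2 and 0.59 without Pkd1 knockout replicate 2. It stayed above 0 in each of these. With the log2 share of small structural RNA as a covariate, an alternative added after the data were seen, the Pkd1 median was 0.35 and 7 members passed the test, all higher in the knockouts, among them Rps6, Rpsa, Rpl14, Rpl7, Rpl17 and Rps4x. That fit called 2754 of all genes instead of 1550.

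In Pkd2 knockout kidneys Rpl29 rose and no tested ribosomal protein gene fell, while 9.54% of all tested genes were called higher and 8.13% lower by the same test. The family as a whole did not stand to one side, with 44 log2 fold changes above and 35 below 0 and a median of 0.026 beside -0.0082 over all tested genes. At an unadjusted limma p below 0.05 there were 4 of the 79 members, a smaller share than the 4852 of all 14637 tested genes. Without Pkd2 knockout replicate 1 the median was -0.45 and without Pkd2 knockout replicate 2 it was 0.45, so its sign rested on which library was kept. With the covariate for small structural RNA it was 0.37, and Rpl12, Rpl15 and Rpl39 passed the test, all higher. That covariate fit called 2494 of all genes instead of 2587.

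Rpl29 (chr9:106429454-106431568, plus strand) codes for a large subunit protein that also binds heparin. It measured 137 and 149 in Pkd1 controls and 181 and 157 in Pkd1 knockouts, at day 10. At day 20 it measured 21.3 and 17.8 in Pkd2 controls and 27.7 and 54.2 in Pkd2 knockouts. The Pkd2 knockouts lay above their controls, with a wide gap between them, and all day 20 libraries lay below all day 10 libraries. Its log2 fold change was 0.96 ± 0.28 (limma adjusted p = 0.0476) in the Pkd2 model and 0.24 ± 0.28 (limma adjusted p = 0.629) in the Pkd1 model, and the difference of these effects was -0.72 ± 0.40 (limma adjusted p = 0.776). The Pkd2 call held in 6 of 17 alternatives and was lost without any 1 kidney library other than Pkd2 knockout replicate 1, and the log2 fold change was 0.49 without Pkd2 knockout replicate 2 and 1.43 without Pkd2 knockout replicate 1. In the authors' deposited table Rpl29 was likewise the only member with an adjusted p below 0.05 that was higher in Pkd2 knockouts, at 0.0381, and none was lower, while 5.68% of all its genes were higher and 4.58% lower. The table's 2 pseudogene copies of Rpl29 sum to 0.671 to 2.00 per library.

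The Pkd2 comparison reached its lower end with the short members Rps29 at -0.86 ± 0.71, Rpl36 at -0.72 ± 0.56 and Rps28 at -0.59 ± 0.55. Rps28 measured 259.7 and 288 in Pkd2 controls and 358 and 91.7 in Pkd2 knockouts, so that the knockouts lay on both sides of the controls. Rpl36 did likewise, with 86.0 and 85.4 in controls and 95.5 and 27.8 in knockouts. With the covariate for small structural RNA the signs of Rps29 and Rps28 turned, to 0.012 and 0.081. In the upper part, after Rpl29, came Rpsa and Rpl12 with 0.54 ± 0.28.

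Both Pkd2 knockouts lay above both Pkd2 controls for 13 of the 79 tested members, against 31.9% of all tested genes, and for no member did both lie below, against 30.9% of all tested genes. Of these 13, 12 also had both Pkd1 knockouts above both Pkd1 controls, which is 92.3% of the Pkd2 group and 44.4% of the 27 in the Pkd1 group. Over all tested genes, 2896 were higher in both models, among 4664 in the Pkd2 group and 4261 in the Pkd1 group. The members' share was above that of all tested genes for the Pkd2 group and below it for the Pkd1 group. The 12 make up 15.2% of the tested members, and 19.8% of all tested genes met the same condition, so the share is not above that of the table. They were named for this after their values were seen and are Rpsa, Rps6 and Rps26 of the small subunit and Rpl3, Rpl4, Rpl7, Rpl10, Rpl12, Rpl14, Rpl15, Rpl17 and Rpl29 of the large subunit. The Pkd1 and Pkd2 comparisons share no library.

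Rpl3, which lies at the peptidyl transferase centre, measured 433 and 512 in Pkd1 controls and 617 and 573 in Pkd1 knockouts, then 383 and 351 in Pkd2 controls and 501 and 392 in Pkd2 knockouts. Rpl10, one of the last proteins to join the large subunit, measured 344 with 523 in Pkd1 controls, 713 with 607 in Pkd1 knockouts, 429.9 with 374 in Pkd2 controls, and 617 with 512 in Pkd2 knockouts. Rpl15 measured 458 with 522 in Pkd1 controls, 689.7 with 698 in Pkd1 knockouts, 335 with 334 in Pkd2 controls, and 559.6 with 394 in Pkd2 knockouts. In each of the 3 the knockouts lay above the controls of their own model, and the Pkd1 difference was 0.34 ± 0.23 for Rpl3, 0.63 ± 0.27 for Rpl10 and 0.50 ± 0.24 for Rpl15. The Pkd2 difference was 0.27 ± 0.23 for Rpl3, 0.49 ± 0.27 for Rpl10 and 0.49 ± 0.24 for Rpl15. None of these passed the adjusted test. Rpl4, Rpl7, Rpl12, Rpl17 and Rps26 had differences of 0.45 to 0.78 in the Pkd1 model and 0.32 to 0.54 in the Pkd2 model.

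**Figure D4:**
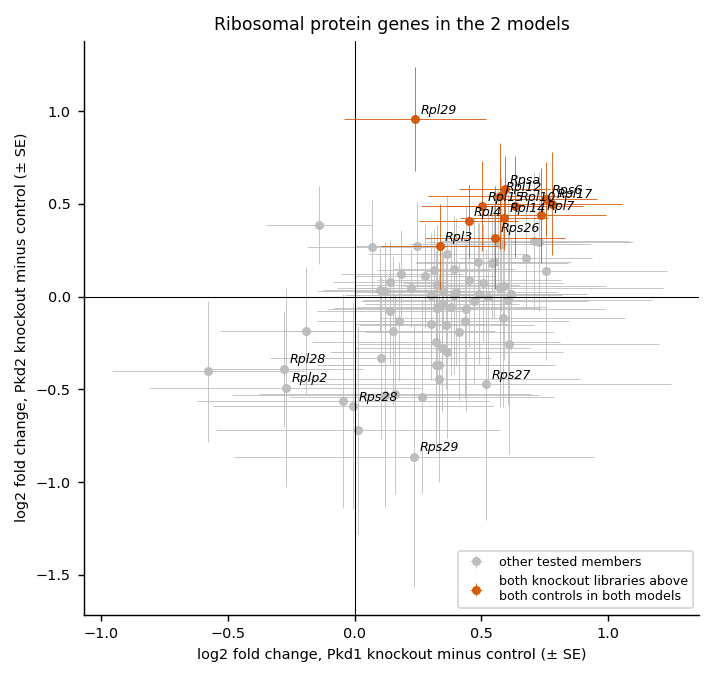
Log2 fold changes of the 79 tested ribosomal protein genes in the Pkd1 model (x axis) and the Pkd2 model (y axis) with their SE, where orange points are the 12 genes with both knockout libraries above both controls in each model. Most points lie right of 0 on the x axis (72 of 79), while they lie on both sides of 0 on the y axis (44 above and 35 below).

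Whether the Pkd1 and Pkd2 effects differ was tested by their interaction. No member passed the test, and 0.00683% of all tested genes did. No member had an unadjusted limma p below 0.05, while 1207 of all 14637 tested genes did. DESeq2 and edgeR on the recovered reads called none either. The median difference over members was 0.36, it was 0.82 without Pkd2 knockout replicate 1 and -0.071 without Pkd2 knockout replicate 2, and it was 0.016 with the covariate for small structural RNA. The larger median in the Pkd1 model was therefore not shown to be a difference between the models.

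None of the proteins of the stalk, the flexible arm that recruits translation factors, passed the test in either knockout comparison. Rplp0, its base, measured 367 and 339 in Pkd1 controls and 399 and 506 in Pkd1 knockouts, then 182 and 178 in Pkd2 controls and 198 and 171 in Pkd2 knockouts. The Pkd1 knockouts lay above their controls, by 0.35 ± 0.21 (limma adjusted p = 0.316), and the Pkd2 groups overlapped, with 0.033 ± 0.21. Rplp1 measured 138 with 199 in Pkd1 controls, 237 with 134 in Pkd1 knockouts, 164 with 170.0 in Pkd2 controls, and 215 with 81.6 in Pkd2 knockouts. Rplp2 measured 122 with 199.9 in Pkd1 controls, 208 with 80.1 in Pkd1 knockouts, 146 with 182 in Pkd2 controls, and 192 with 69.6 in Pkd2 knockouts. Controls overlapped knockouts in each model. The Pkd1 difference was 0.10 ± 0.44 for Rplp1 and -0.27 ± 0.54 for Rplp2, and the Pkd2 difference was -0.33 ± 0.44 for Rplp1 and -0.49 ± 0.54 for Rplp2. Both are short and have the wide replicate gaps of short members.

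Rpl5 and Rpl11, which bind Mdm2 and thereby stabilise p53 when ribosome assembly fails, also did not pass the test. Rpl5 measured 391 and 408 in Pkd1 controls and 435 and 474 in Pkd1 knockouts, and its Pkd1 groups did not overlap, with a difference of 0.18 ± 0.24. In the Pkd2 model it measured 336 and 311 in controls and 427 and 290.0 in knockouts, which lay on both sides of the controls. Rpl11 measured 257 with 298 in Pkd1 controls, 346 with 269 in Pkd1 knockouts, 225 with 204 in Pkd2 controls, and 273 with 152 in Pkd2 knockouts. Its groups overlapped in each model, with a difference of 0.14 ± 0.29 for Pkd1 and of -0.075 ± 0.29 for Pkd2.

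Among the paralogues, the ubiquitous member was far above its tissue-restricted copy. Rpl3l, known from heart and skeletal muscle, was listed at 0 to 0.219 in the 8 libraries and Rpl39l, known from testis, at 0 to 0.0875, and neither was tested here. In the authors' deposited table Rpl3l was lower in Pkd1 knockouts with an adjusted p of 0.00184, although its highest value in any library was 0.219. No other member was below 0.05 there, while 3.59% of all its genes were higher and 4.35% lower in Pkd1 knockouts. Rps27l, a p53 target, measured 49.1 and 75.9 in Pkd1 controls and 95.8 and 63.4 in Pkd1 knockouts, then 88.0 and 81.4 in Pkd2 controls and 98.3 and 49.2 in Pkd2 knockouts. Rps27 measured 243 with 632 in Pkd1 controls, 907 with 349 in Pkd1 knockouts, 527 with 392 in Pkd2 controls, and 696 with 154 in Pkd2 knockouts. Controls overlapped knockouts for both genes. The difference of Rps27l was 0.35 ± 0.35 for Pkd1 and -0.28 ± 0.35 for Pkd2, and that of Rps27 was 0.52 ± 0.73 for Pkd1 and -0.47 ± 0.73 for Pkd2. Rpl36al stood at 43.2 to 87.2 and Rpl36a at 97.6 to 334 over the 8 libraries, and neither passed the test in any comparison.

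The controls of the models differ in age and floxed allele, which cannot be told apart, and they are shared with the knockout comparisons. Between day 20 Pkd2 controls and day 10 Pkd1 controls, 3 of the 79 tested members were lower and none higher, against 7.26 and 5.04% of all tested genes. These 3 were Rpl29 at -2.81 ± 0.28 (limma adjusted p = 0.00101), Rps4l at -1.26 ± 0.21 (limma adjusted p = 0.00674) and Rplp0 at -0.97 ± 0.21 (limma adjusted p = 0.0180). The Rpl29 call held in all 17 alternatives, with log2 differences from -2.94 to -2.69, and those of Rps4l and Rplp0 in 15 and 13 of 17. Rps4l, a copy of Rps4x, measured 7.09 and 6.41 in Pkd1 controls and 1.72 and 2.85 in Pkd2 controls, and its knockouts measured 6.49 and 5.57 at day 10 and 3.53 and 2.94 at day 20. Rps4x itself measured 88.9 and 159.7 in Pkd1 controls and 125 and 107 in Pkd2 controls, with overlapping groups. The mean over the kidney libraries was 4.57 for Rps4l and 148 for Rps4x. No coding length was found for Rps4l in GENCODE M21, and whether it shares reads with Rps4x was not tested. Both day 20 controls lay below both day 10 controls for 29 of the 79 tested members, against 31.2% of all tested genes, and the median over members was -0.20. Without Pkd1 control replicate 2 the median was 0.13.

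Few genes that work with the ribosome were called in the kidneys, where 10.6% of all tested genes were called in either direction in the Pkd1 and 17.7% in the Pkd2 model. Of 44 genes of ribosome assembly none passed the test in either model, and of 26 initiation factors none did. Of 19 elongation factors and other genes with a pyrimidine tract, 1 rose in the Pkd2 model, Hnrnpa1 at 0.83 ± 0.24 (limma adjusted p = 0.0430), which measured 93.2 and 100.2 in Pkd2 controls and 174 and 172 in Pkd2 knockouts. Of 10 genes around S6 kinase and the control of such messenger RNAs, Eif4ebp1, which holds back initiation factor eIF4E, rose in the Pkd1 model at 0.88 ± 0.21 (limma adjusted p = 0.0301), from 5.86 and 4.20 to 9.78 and 10.2. Its paralogue Eif4ebp2 fell there at -0.73 ± 0.20 (limma adjusted p = 0.0477), from 12.7 and 11.4 to 7.29 and 6.48. Eef2k, the kinase that slows elongation, rose in the Pkd2 model at 0.99 ± 0.26 (limma adjusted p = 0.0303), from 6.00 and 7.68 to 11.9 and 17.6. Rps6kb1 and Rps6kb2, the S6 kinases, did not pass the test in either model. Rps3a1, a small subunit protein outside the naming pattern, was at 0.64 ± 0.23 for Pkd1 and 0.50 ± 0.23 for Pkd2 and did not pass.

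In mIMCD-3 cells the listed ribosomal protein genes were higher with the Hoxb3os gapmer almost without exception. The authors' deposited table keeps only genes with an adjusted p below 0.05 in this same comparison, so the direction of listed members is described and not tested. Of the 41 members listed, 40 were higher and 1 was lower, beside 44.4% higher and 55.6% lower among all listed genes. All 25 listed large subunit members other than Rpl12 and all 15 small subunit members were among those higher. In each of the 41 the 3 gapmer libraries and the 2 control libraries did not overlap. The same held for all but 2 of the 2016 listed genes, so it is not particular to the members. The changes were small, since the median log2 fold change of the 40 in the authors' deposited table was 0.14. The lowest of the 40 was that of Rpl5, at 0.11, where the mean of the gapmer libraries was 7.87% above that of the control libraries. The other 40 members were not listed and their values in the cells are not known here.

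Rps2, near the entry of the messenger RNA channel, measured 44384 and 41517 normalised reads in control libraries against 50562, 51400 and 50339 with the gapmer, a log2 difference of 0.24 ± 0.05 (SE over the libraries, n = 3 against 2). All 3 stalk proteins were among the members higher with the gapmer. Rplp0 measured 70451 and 67692 against 79105, 85935 and 79464 and Rplp1 measured 19536 and 17810 against 21306, 23508 and 21578, with differences of 0.24 ± 0.05 and 0.25 ± 0.05. Rplp2 measured 7637 and 7649 against 8181, 8707 and 8777, a difference of 0.16 ± 0.04.

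Rpl12, which sits at the base of the stalk, was the exception. It measured 25746 and 24290 in control libraries and 23300, 22875 and 21644 in gapmer libraries, so all gapmer libraries were lower. The log2 difference was -0.15 ± 0.04, and the authors' deposited table gives -0.14 with an adjusted p of 0.00631. In the kidneys Rpl12 was among the 12 genes with both knockouts above both controls in each model, with 177 and 291 in Pkd1 controls, 374 and 306 in Pkd1 knockouts, 164 and 157 in Pkd2 controls and 282 and 194 in Pkd2 knockouts.

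**Figure D5:**
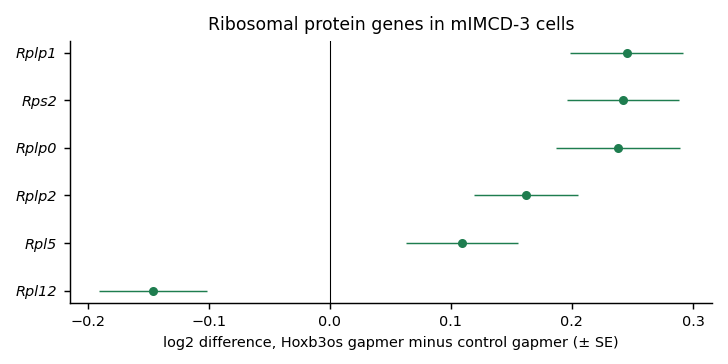
Log2 differences (Hoxb3os gapmer minus control gapmer, with SE) of 6 of the 41 ribosomal protein genes listed in the cell table, those described here with their values, ordered by size. Rpl5, Rplp2, Rplp0, Rps2 and Rplp1 lie right of 0, between 0.11 and 0.25, and Rpl12 lies at -0.15.

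The members took 10.4 and 9.83% of the listed values in control libraries and 11.1, 11.2 and 11.0% in gapmer libraries. For a comparison by level, the members, the pseudogene entries named after them and similar symbols such as Rps3a1 were left out. Of the 510 remaining listed genes with a mean at least as high as the lowest listed member, 259 were higher with the gapmer. That is 50.8%, beside 44.4% of all listed genes. The part of a gene's level in its direction was not tested. All 35 listed pseudogene entries named after members were higher too, and their reads may be shared with the genes. Other lists around the ribosome were also represented in the selected table. All 20 listed genes of ribosome assembly were higher, with log2 fold changes of 0.13 to 0.25 in the authors' deposited table, among them the helicase Ddx21 at 0.21 and the methyltransferase Nop2 at 0.25. Of 8 initiation factors 6 were higher, and all 4 listed elongation or pyrimidine-tract genes and all 7 mitochondrial ribosomal proteins were higher. Of the list around S6 kinase, 1 listed gene was higher and 2 were lower. Eif4ebp1 was higher, with 2129 and 2014 in control libraries and 2471, 2445 and 2443 in gapmer libraries. Rps6ka3, a kinase of the RSK family, was lower, at -0.14 in the authors' deposited table. Pdcd4, an inhibitor of initiation that S6 kinase marks for degradation, was lower too, with 2429 and 2581 in control libraries and 1894, 1969 and 1862 in gapmer libraries.

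The size of a member's change in the cells had little relation to its coding length, with a Spearman's rho of -0.25 over the 41 listed members. The cell and kidney tables were scaled separately and are not compared in level. The kidney medians of the 41 members listed in the cell table were 0.32 in the Pkd1 and -0.00038 in the Pkd2 model, and those of the 38 tested members not listed there were 0.49 and 0.036.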

How the data were processed

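RNA was extracted with Trizol and TruSeq libraries were made, per the labels' protocols. The submitters' processing notes name STAR 2.4.2a, RSEM 1.2.22, Cufflinks 2.2.1, edgeR and DESeq2 1.12.3 with mouse build mm10 (GRCm38), without settings. Each kidney value deposited by the authors is a signal, read from its steps as a scaled CPM, and the deposited cell signal is reads divided by a size factor. A likelihood ratio score deposited by the authors was not used. In 7 of the 8 kidney libraries the low values gave whole reads, and 97.9 to 98.3% of the values per library under 60 reads were whole within 0.02 of a read. The step of Pkd1 control replicate 1 is less certain. The log2 fold changes and adjusted p-values deposited by the authors were used as they stand and are named where printed.

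Genes reaching 1 in 2 or more kidney libraries were tested with limma 3.58.1 (trend, R 4.3.3) on log2(value + 1), in 1 fit of 4 groups and 8 libraries with 4 residual degrees of freedom, with a call where the Benjamini-Hochberg adjusted p over all 14637 tested genes was below 0.05. A log2 fold change on this scale understates the change of low genes. Only the spread over members and the median are given for the family, with no test of the list. The cell table is a selection and was not tested again. The limma fit and the count fits were tested on simulated data. There the genes varied independently with the same setting of the spread. That simulation held no replicate gaps shared by many genes, so it does not cover gaps like those of the members. Coding lengths came from GENCODE M21. Alternatives were quantile scaling, a rescaling without mitochondrial genes and small structural RNAs (types misc_RNA, snRNA, snoRNA, scaRNA, rRNA, miRNA and ribozyme), no filter, a pseudocount of 0.1, DESeq2 1.42.0 and edgeR 4.0.16 on the recovered reads, the compared groups alone, a replicate block and leaving out each library.

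The members and lists were chosen with earlier results of these data known. Named are called members, the 3 with the highest and the 3 with the lowest log2 fold change in each knockout comparison, Rps6, the stalk proteins, Rpsa, Rpl5, Rpl11, paralogues, members in the cell table (some are not reported here) and, of each list, called genes. Members of the 12 that were higher in both models, the members with the widest replicate gaps and the genes named by an alternative were chosen after their values were seen. Of the replicate numbers, the deviations of same-numbered libraries correlated at -0.38 in the Pkd1 and -0.049 in the Pkd2 model, so the numbers were not taken to pair libraries.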

Additional observations from a re-analysis of the deposited data

How the results depend on the processing

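The count of members called moved with most settings in the knockout comparisons and with fewer between controls. In the Pkd1 model it was 1, and it was 0 with quantile scaling, without a filter, by edgeR, with a replicate block and with the Pkd1 groups fitted alone, 4 by DESeq2, 7 with the covariate for small structural RNA and 0 to 3 without 1 library. In the Pkd2 model it was 1, and it was 0 without a filter, with a replicate block and with the Pkd2 groups alone, 2 with quantile scaling and by DESeq2, 3 with the covariate and 0 to 9 without 1 library. The 9 came without Pkd2 knockout replicate 1. Between controls it was 3, 7 with the controls alone, 8 with the covariate and 1 to 6 without 1 library. The interaction count was 0 throughout, and the median of the difference ran from -0.071 to 0.82 without 1 library. The Pkd2 median ran from -0.45 to 0.45, the Pkd1 median from 0.043 to 0.71 and the median between controls from -0.48 to 0.13. Over all genes, DESeq2 on the recovered reads called 2203 genes for Pkd1 and 3036 for Pkd2, edgeR called 1534 and 2382, and limma called 1550 and 2587. Between controls limma called 1801 of all genes, 3079 with the controls alone and 2937 with the covariate. The 7 and 8 members called in these last fits were smaller shares of the tested members than 3079 and 2937 were of all tested genes. Because the deviations of same-numbered Pkd1 libraries correlated negatively, a block with the Pkd1 control numbers exchanged was also fitted. It called 17 members, 16 higher and 1 lower (Rpl13), and 3054 of all genes. That block was chosen from the same values it was fitted to, so its larger count is no support for a change of the members. Whether the Pkd1 numbers are crossed was not tested. The same-number block on its own called 1231 and 2200 of all genes. In the cells 40 members were higher in every setting except quantile scaling, where it was 38, with Rpl5 at -0.0090 and Rps12 at -0.0038.

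In the Pkd2 model the covariate turned the signs of Rps29 to 0.012, Rps28 to 0.081, Rplp1 to 0.19, Rplp2 to 0.15, Rpl11 to 0.22, Rps27 to 0.41 and Rps27l to 0.12, and quantile scaling turned that of Rpl11 to 0.058. Without 1 library, the Pkd1 log2 fold change ran from -0.95 to 0.41 for Rplp2, from -0.31 to 0.51 for Rplp1, from -0.040 to 0.32 for Rpl11 and from -0.17 to 1.21 for Rps27. The Pkd2 values ran from -1.98 to 0.25 for Rps29, from -1.59 to 0.15 for Rpl36, from -1.57 to 0.39 for Rps28, from -0.071 to 0.14 for Rplp0, from -1.02 to 0.36 for Rplp1, from -1.22 to 0.24 for Rplp2, from -0.16 to 0.40 for Rpl5, from -0.50 to 0.35 for Rpl11, from -1.56 to 0.61 for Rps27 and from -0.77 to 0.21 for Rps27l. The cause of these changes of sign was not tested. With 2 libraries a group and replicate gaps of up to 2.24 in log2 for short members, changes of the size of the family's median could not be told from the spread for single short genes.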

Other observations

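Some mitochondrial ribosomal proteins, which build the separate ribosome of the mitochondrion, fell in the knockout kidneys. Of 77 tested genes 1 fell in the Pkd1 model and 11 fell in the Pkd2 model, none rose, and the medians were -0.22 and -0.43, beside 5.48 and 8.13% of all tested genes called lower. Mrpl12, which also binds the mitochondrial RNA polymerase, measured 22.8 and 21.6 in Pkd1 controls, 9.10 and 10.4 in Pkd1 knockouts, 25.8 and 29.9 in Pkd2 controls and 15.6 and 11.5 in Pkd2 knockouts. The knockouts lay below the controls in both models, with -1.11 ± 0.19 (limma adjusted p = 0.00849) and -0.999 ± 0.19 (limma adjusted p = 0.00901). Mrps6 measured 39.3 and 29.0 in Pkd2 controls and 13.9 and 9.23 in Pkd2 knockouts, a fall of -1.49 ± 0.22 (limma adjusted p = 0.00367). The summed markers of the proximal tubule were lower in the same knockout libraries, and their part in these values was not tested.

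The kidney table holds 204 pseudogene entries named after ribosomal protein genes, and 83 of those were high enough to be tested. The highest of them, Rpl23a-ps3, had a mean of 129 over the 8 libraries.

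Snhg5, a snoRNA host gene with a pyrimidine tract at its start, measured 8.42 and 7.30 in Pkd2 controls and 15.2 and 12.6 in Pkd2 knockouts, a difference of 0.75 ± 0.22 (limma adjusted p = 0.0456). It was the only one of 6 such host genes that passed the test, where 17.7% of all tested genes did.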
